A study of Mus musculus with 4 samples.

Results

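Phosphatidylethanolamine (PE) is an abundant membrane phospholipid of the brain, and the 10 genes described here encode enzymes that make it or break it down. They were taken by symbol from a list of PE metabolism genes. The rule uses no measured value, but the list was chosen with earlier results of these data known. All 10 were found among the 32285 genes counted in each of 4 single-nucleus RNA libraries of mouse brain. Per the study's methods, nuclei were isolated from tissue sections of frozen brains. Each library pooled nuclei of 2 female 5XFAD mice aged 7 to 10 weeks. 5XFAD mice carry transgenes driven by the *Thy1* promoter, which is active mainly in neurons, and serve as a model of amyloid deposition. The mice had received engineered extracellular vesicles into a vein, and 2 libraries came from the PE-low EVs group and 2 from the PE-high EVs group. According to the study's methods, the vesicles were rebuilt from lipids of adipocyte vesicles and coated with transferrin. The paper describes both kinds as derived from adipocytes of chow-fed mice, with chosen PE species added to make the PE-high EVs. All 4 libraries therefore share the transgenes and the injection, and an uninjected or wild-type brain was not analysed here. Libraries are given in the order PE-low-EV 1, PE-low-EV 2, PE-high-EV 1 and PE-high-EV 2.

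The deposited matrices held every barcode, so nuclei were called first. Nuclei with at most 3% mitochondrial unique molecular identifiers (UMIs, the counted molecules) numbered 2778, 2996, 1457 and 3458, with median depths of 2332.5, 2885, 1877 and 1712 UMIs. A wider limit of 15% kept 10292, 7598, 10074 and 9557 nuclei, and the levels and tests were also computed there. The study's methods state the 3% limit. Its reported number of nuclei is close to the 37521 kept here at 15% and far above the 10689 kept at 3%. Any pair of libraries shared at most 4 barcodes. Clusters were named from marker genes only, and the names mean "like" that cell type: excitatory neuron-like (4447 nuclei), striatal projection neuron-like (2802), inhibitory neuron-like (1869), oligodendrocyte-like (489), astrocyte-like (486), oligodendrocyte precursor-like (241) and microglia-like (171). The smallest sums were the 19 microglia-like and 20 precursor-like nuclei of PE-high-EV library 1. The PE genes were left out of the genes that drove the clustering. A level is the gene's UMIs for every 1000000 UMIs of the class (CPM) in a library, given as mean ± SD over 4 libraries. Levels of different genes are not compared, because reads from the 3' end of nuclear RNA do not capture genes equally.

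PE arises by a pair of main routes. In the CDP-ethanolamine route of the endoplasmic reticulum, an ethanolamine kinase (*Etnk1*, *Etnk2*) phosphorylates ethanolamine, *Pcyt2* activates it to CDP-ethanolamine and *Selenoi* or *Cept1* joins it to diacylglycerol. In the mitochondrial route, *Pisd* decarboxylates phosphatidylserine, which *Ptdss1* makes from phosphatidylcholine and *Ptdss2* from PE. On the breakdown side, *Etnppl* degrades phosphoethanolamine, the product of the kinases, and *Napepld* releases N-acylethanolamines such as anandamide from N-acyl-PE. Oligodendrocytes build myelin, which is rich in ethanolamine phospholipids.

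RefSeq promoters (250 bases before to 50 after a start, GRCm38.p6) were found for 8 of the 10 genes. Those of 3 are shown because their transcripts were spread differently over the classes. *Etnk1* was present at similar levels in all of them, *Etnk2* was highest among neurons in the excitatory neuron-like class, and *Etnppl* was found mainly in astrocyte-like nuclei. *Etnk1* lay on the plus strand of chromosome 6 (gene 143167221 to 143232307), *Etnk2* on the plus strand of chromosome 1 (133363572 to 133380336) and *Etnppl* on the plus strand of chromosome 3 (130617448 to 130637521). Capitals mark the dinucleotide CG, which reads the same on both strands.
Etnk1 promoter, chr6:143166980-143167279: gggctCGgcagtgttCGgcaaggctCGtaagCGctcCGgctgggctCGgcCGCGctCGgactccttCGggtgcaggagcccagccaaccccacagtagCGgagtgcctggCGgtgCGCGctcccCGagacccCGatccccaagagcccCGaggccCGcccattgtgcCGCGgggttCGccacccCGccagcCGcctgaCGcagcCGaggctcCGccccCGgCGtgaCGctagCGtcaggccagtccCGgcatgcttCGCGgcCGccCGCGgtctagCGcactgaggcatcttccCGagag
Etnk2 promoter, chr1:133363322-133363621: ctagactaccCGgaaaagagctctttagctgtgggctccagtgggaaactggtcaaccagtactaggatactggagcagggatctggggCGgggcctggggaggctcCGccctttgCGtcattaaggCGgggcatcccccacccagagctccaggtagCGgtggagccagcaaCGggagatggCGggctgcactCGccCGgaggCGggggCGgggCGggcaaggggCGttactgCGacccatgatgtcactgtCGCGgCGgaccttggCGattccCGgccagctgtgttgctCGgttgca
Etnppl promoter, chr3:130617198-130617497: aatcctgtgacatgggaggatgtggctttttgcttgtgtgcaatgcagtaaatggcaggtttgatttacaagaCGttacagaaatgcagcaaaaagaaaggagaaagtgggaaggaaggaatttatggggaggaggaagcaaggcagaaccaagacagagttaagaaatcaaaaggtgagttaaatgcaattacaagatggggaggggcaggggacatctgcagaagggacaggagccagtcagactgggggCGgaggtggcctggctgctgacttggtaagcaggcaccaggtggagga
The *Etnk1* window held 38 CG, and 4.95% of 32851 promoters of this length held as many or more. The *Etnk2* window held 21 CG, a number that 24.8% of promoters reached. The *Etnppl* window held 2 CG, and 23.3% of promoters held as many or fewer. The median promoter held 7 CG and 94.6% held at least 1, so these counts describe the windows only.

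**Figure D1:**
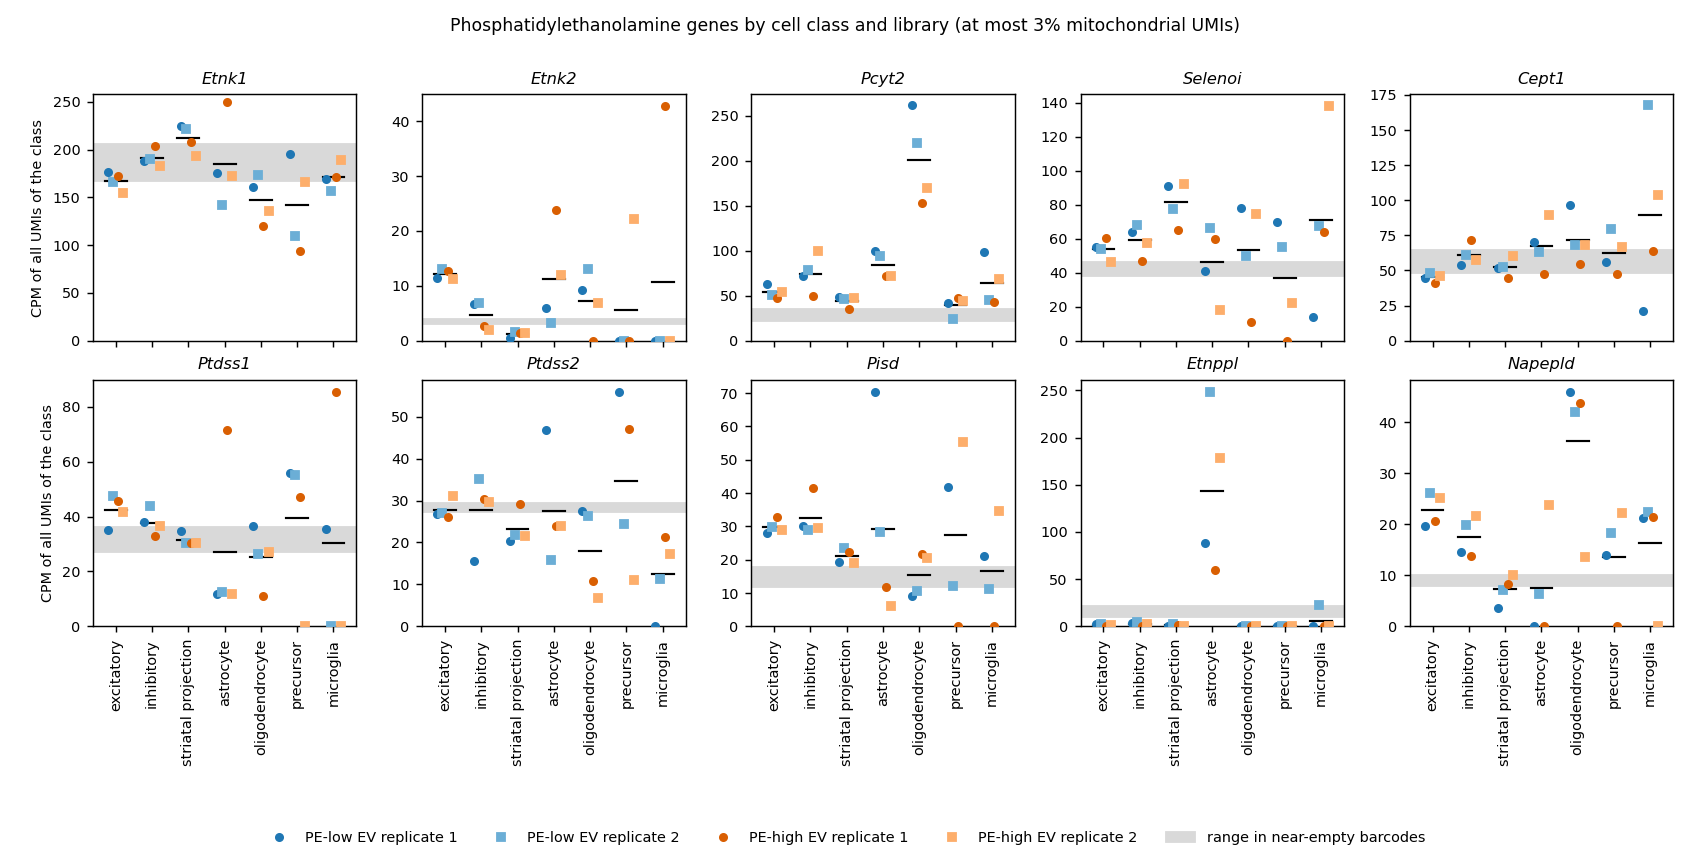
Level of each of the 10 PE genes (CPM, 1 panel per gene with its own axis from 0) in 7 cell classes, with 1 point per library coloured by PE-low EV or PE-high EV a bar at the mean of 4 libraries and a grey band over the range in near-empty barcodes. *Pcyt2* stands above all other classes in oligodendrocyte-like nuclei and *Etnppl* in astrocyte-like nuclei, while *Etnk1* spans only 1.5-fold between its highest and lowest class.

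*Etnk1*, the more widespread ethanolamine kinase, was present in every class at similar levels. Its mean was highest in striatal projection neuron-like nuclei (224, 222, 208 and 193 CPM) and lowest in precursor-like nuclei (196, 110, 94.2 and 166 CPM), a 1.5-fold span. The ranges of all neighbouring classes in this order overlapped. Barcodes with too few UMIs to be nuclei held 167 to 206 CPM, in the range of the nuclei themselves. Each class was compared with the mean of the other classes with edgeR's quasi-likelihood test on summed UMIs, with the library as a covariate and an adjusted p of 0.1 over all 7097 genes as the threshold. In this test *Etnk1* was higher in striatal projection neuron-like nuclei (log2 fold change 0.49, SE 0.09, adjusted p = 1.28e-05, edgeR) and passed in no other class.

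*Etnk2*, the other ethanolamine kinase, was sparse, with 196 UMIs in all, and followed the excitatory neuron-like class. It stood at 11.4, 13.1, 12.8 and 11.2 CPM there, against 0.524, 1.63, 1.39 and 1.35 CPM in striatal projection neuron-like nuclei, 9.92-fold lower in the mean and with no overlap. Inhibitory neuron-like nuclei lay between, at 6.70, 6.93, 2.76 and 1.97 CPM. Glial levels rested on 2 to 8 UMIs per class and ranged from 0 to 42.8 CPM. The near-empty barcodes held 3.09 to 4.03 CPM, above the striatal level and below the excitatory level. *Etnk2* did not pass the low-count filter of the class test, which asks for 37.3 CPM in at least 4 of the 28 sums of a class and a library. It reached that level in 1.

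Within the excitatory neuron-like class *Etnk2* was unevenly spread. A cluster led by *Stard8* and *Ccbe1* (1034 nuclei) held 78 of its UMIs at 23.6, 23.0, 36.3 and 30.8 CPM. A cluster led by *Rspo2* held 8.07, 18.7, 9.83 and 11.5 CPM, and one led by *Adam33* and *Rorb* 9.86, 10.9, 13.3 and 7.61 CPM. Pooled levels in the other excitatory clusters of at least 200 nuclei were 0.546 CPM (1 UMI, led by *Arhgap25* and *Hs3st4*), 1.77 CPM (3 UMIs, led by *Ndst4*) and 1.26 CPM (1 UMI, led by *Npr3*). All 4 libraries of the *Stard8* cluster were therefore above every library of the other 5 excitatory clusters of this size. These clusters come from the same nuclei and differ in many genes, so their levels are given without a test.

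**Figure D2:**
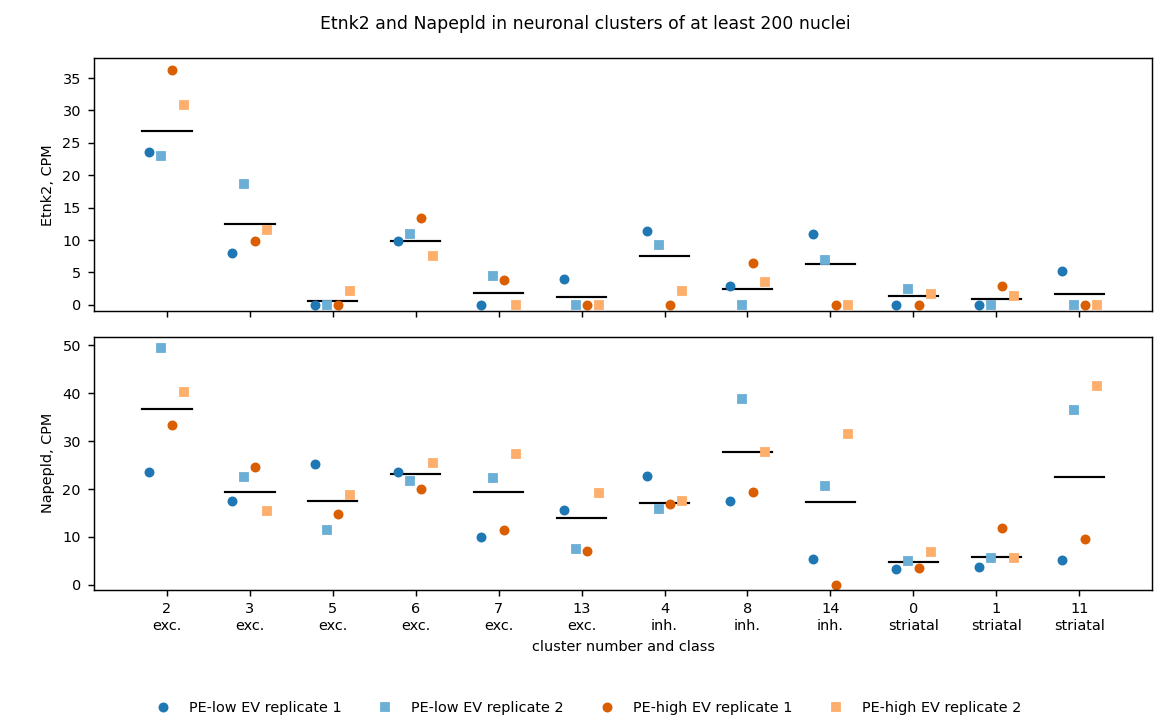
*Etnk2* and *Napepld* (CPM) in neuronal clusters of at least 200 nuclei, given by cluster number and class, with 1 point per library and a bar at the level of the pooled libraries. Cluster 2, led by *Stard8*, is highest for both genes (26.8 CPM of *Etnk2*, 36.8 CPM of *Napepld*), and the larger striatal clusters 0 and 1 are lowest for *Napepld* (4.69 and 5.87 CPM).

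*Pcyt2* (chromosome 11, 120610087 to 120617936, minus strand), the enzyme regarded as rate-limiting in this route, was concentrated in oligodendrocyte-like nuclei. It reached 262, 220, 153 and 170 CPM there (201 ± 49.4, SD, n = 4, from 57, 84, 14 and 25 UMIs). Every one of these libraries lay above every library of every other class. Astrocyte-like nuclei came next (84.3 ± 14.9 CPM, highest library 99.7) and precursor-like nuclei last (39.5 ± 10.2 CPM), so the means differed 2.39-fold and 5.10-fold. Astrocyte-, inhibitory neuron-, microglia-, excitatory neuron-, striatal- and precursor-like nuclei followed in this order, and each overlapped the next. Near-empty barcodes held 22.0 to 35.0 CPM. The class test gave a log2 fold change of 1.84 in oligodendrocyte-like nuclei (SE 0.15, adjusted p = 4.97e-15, edgeR). *Pcyt2* was lower in precursor-like nuclei (log2 fold change -1.27, SE 0.36, adjusted p = 0.00826, edgeR, from 12 UMIs) and in striatal projection neuron-like nuclei (-0.62, SE 0.14, adjusted p = 0.000246, edgeR). The precursor call was lost without PE-low-EV library 2 (adjusted p = 0.189). It was lower also in excitatory neuron-like nuclei (-0.30, SE 0.12, adjusted p = 0.0426, edgeR), a call lost without PE-low-EV library 1 (adjusted p = 0.25), without PE-high-EV library 2 (0.183) and without the low-count filter (0.475). The striatal and excitatory differences turned to higher (0.34 and 0.59) at the 15% limit, where the mean of the other classes includes 4 more. The precursor call was also lost there (-0.45, adjusted p = 0.275, edgeR).

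Along the clusters near the oligodendrocyte markers, *Pcyt2* was not equally high, and this comparison was chosen after its values were seen. With the 4 libraries pooled and exact 95% Poisson intervals, which cover counting error only, the 201 nuclei led by *Pdgfra*, the receptor that marks precursors, held 25.1 CPM (9.20 to 54.5, 6 UMIs). A smaller precursor-like cluster of 40 nuclei held 56.0 CPM (20.6 to 122). An unnamed cluster of 37 nuclei led by *Enpp6*, *Bcas1* and *Bmp4*, genes known from newly forming oligodendrocytes, held 208 CPM (104 to 373, 11 UMIs). Its libraries had 4, 7, 0 and 0 of these UMIs in 14, 14, 1 and 8 nuclei, so the level rests on the PE-low-EV libraries. The highest level, 577 CPM (404 to 798, 36 UMIs), was in 27 oligodendrocyte-like nuclei led by *Cnksr3*. The main oligodendrocyte-like cluster of 462 nuclei held 186 CPM (157 to 219, 144 UMIs). In that cluster alone the libraries stood at 235, 184, 145 and 142 CPM, so the class level did not rest on the 27 nuclei.

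**Figure D3:**
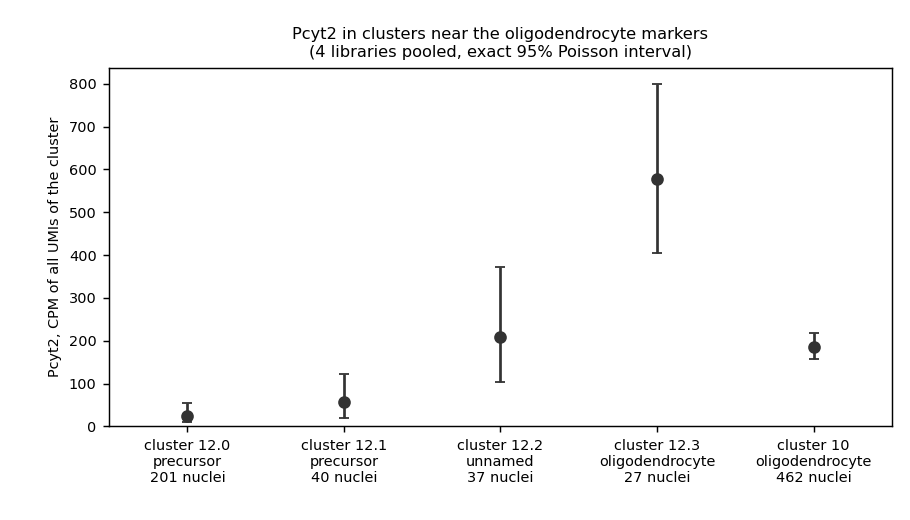
*Pcyt2* (CPM, axis from 0) in 5 clusters near the oligodendrocyte markers, 4 libraries pooled, with exact 95% Poisson intervals. The 27 nuclei led by *Cnksr3* reach 577 CPM, and their interval of 404 to 798 lies above those of the other 4 clusters.

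*Selenoi* and *Cept1* complete PE. *Selenoi* (chromosome 5, 30232581 to 30272427, plus strand) encodes the ethanolaminephosphotransferase and *Cept1* (chromosome 3, 106502260 to 106547802, minus strand) an enzyme that accepts both choline and ethanolamine. *Selenoi* was highest in striatal projection neuron-like nuclei, at 90.7, 77.2, 65.2 and 92.0 CPM, against 54.9, 53.9, 60.2 and 46.4 CPM in excitatory neuron-like nuclei. The libraries of these classes did not overlap, and the class test gave 0.77 for the striatal class (SE 0.15, adjusted p = 2.18e-05, edgeR). The other classes did overlap the striatal class. Their highest libraries held 138 (microglia-like), 78.1 (oligodendrocyte-like), 69.9 (precursor-like), 68.0 (inhibitory neuron-like) and 66.1 CPM (astrocyte-like). *Cept1* was lowest in excitatory neuron-like nuclei, at 45.0, 48.5, 40.7 and 45.8 CPM, and passed as lower there (log2 fold change -0.41, SE 0.13, adjusted p = 0.0059, edgeR). Without the low-count filter this call was lost (-0.30, adjusted p = 0.104, edgeR). Its highest mean, in microglia-like nuclei, came from 21.2, 168, 64.1 and 103 CPM (3, 15, 3 and 6 UMIs), a spread too wide to pass (adjusted p = 0.739, edgeR).

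The genes of the mitochondrial route lie on chromosome 13 (*Ptdss1*, 66932830 to 66998401, plus strand), chromosome 7 (*Ptdss2*, 141122382 to 141157606, plus strand) and chromosome 5 (*Pisd*, 32736301 to 32785646, minus strand). *Ptdss1* averaged 42.4 ± 5.5 CPM in excitatory neuron-like nuclei (35.0, 47.4, 45.6 and 41.7) and 25.3 ± 10.7 CPM in oligodendrocyte-like nuclei, and it passed as higher in the excitatory class (log2 fold change 0.63, SE 0.18, adjusted p = 0.00225, edgeR). *Pisd* averaged 32.5 ± 5.9 CPM in inhibitory neuron-like and 29.9 ± 2.1 CPM in excitatory neuron-like nuclei, and it passed as higher in the latter (0.51, SE 0.19, adjusted p = 0.0248, edgeR). Oligodendrocyte-like nuclei held the least *Pisd*, 9.18, 10.5, 21.8 and 20.4 CPM from 11 UMIs, which did not pass (-0.99, SE 0.46, adjusted p = 0.127, edgeR). *Ptdss2* ranged from 12.5 CPM in microglia-like to 34.6 CPM in precursor-like nuclei, overlapped between neighbouring classes and was not in the class test. The near-empty barcodes held 27.2 to 29.4 CPM of *Ptdss2* and 27.3 to 36.2 CPM of *Ptdss1*, within the range of the classes.

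*Etnppl*, the phospho-lyase that breaks down phosphoethanolamine, was the most restricted of the 10 genes. Astrocyte-like nuclei held 88.0, 249, 59.5 and 179 CPM (144 ± 86.4, SD, n = 4, from 15, 79, 5 and 30 UMIs). The means of inhibitory, excitatory and striatal projection neuron-like nuclei were 57.0-fold, 77.1-fold and 121-fold lower, with no library above 4.77 CPM. Oligodendrocyte-like and precursor-like nuclei had 0 *Etnppl* UMIs of 838106 and 346464, which puts the astrocyte-like level at least 40.2-fold and at least 16.6-fold higher against a floor of 3 UMIs over the class. Microglia-like nuclei had 2 UMIs, both in 1 library. At the 15% limit oligodendrocyte-like nuclei were not at 0 but held 3.65 to 8.27 CPM, with a mean 35.0-fold below that of astrocyte-like nuclei. The near-empty barcodes held 9.95 to 21.7 CPM, more than the neurons, and their part in the low neuronal level was not tested. *Etnppl* entered the class test through its 4 astrocyte-like sums alone, so it had to differ there and its p is not given.

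The astrocyte-like libraries differed in *Etnppl* by more than the treatment groups did. Both second libraries (249 and 179 CPM) were above both first libraries (88.0 and 59.5 CPM), and at the wider limit the levels were 120, 274, 168 and 219 CPM. The second libraries also held more nuclei of an inhibitory neuron-like cluster led by *Baiap3* and *Prlr*, at 3.92%, 15.8%, 4.05% and 7.72% of nuclei. Whether the makeup of the tissue taken has a part in the *Etnppl* difference was not tested.

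*Napepld* (chromosome 5, 21662901 to 21701396, minus strand), the phospholipase D that makes N-acylethanolamines, had 458 UMIs and did not pass the low-count filter of the class test at the 3% limit, since 3 of the 28 sums, all oligodendrocyte-like, reached its 37.3 CPM. Oligodendrocyte-like nuclei held 45.9, 41.9, 43.7 and 13.6 CPM, the last from 2 UMIs. Excitatory neuron-like nuclei held 19.6, 26.0, 20.7 and 25.1 CPM and striatal projection neuron-like nuclei 3.67, 7.06, 8.32 and 10.1 CPM, with no overlap between these neurons. Within the striatal class the smallest cluster, led by *Chst9* and *Tshz1* (354 nuclei), stood apart at 5.15, 36.5, 9.62 and 41.5 CPM, from 13 UMIs, against 4.69 and 5.87 CPM pooled in the larger clusters.

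Of the 49 pairs of a gene and a class that the class test covered (7 genes in 7 classes), 10 passed, 6 as higher and 4 as lower, while 33% of all 49679 pairs passed. The 10 include *Etnppl* in astrocyte-like nuclei, which the low-count filter chose for its level there. By class, 4 of 7 passed in excitatory neuron-like nuclei, where 52.2% of all 7097 genes passed, and 3 of 7 in striatal projection neuron-like nuclei, where 49.7% did. None of 7 passed in inhibitory neuron-like nuclei (background 43.5%) or in microglia-like nuclei (9.95%), where by unadjusted p under 0.05 the count was also 0 with edgeR. In each of astrocyte-like (30.8%), oligodendrocyte-like (25.6%) and precursor-like nuclei (19.1%) 1 of 7 passed. Passing was therefore common among all genes, and the PE genes are described above by the sizes of their differences.

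At the 15% limit 11 classes could be tested. Of the class differences that passed at the 3% limit, *Pcyt2* in excitatory and striatal projection neuron-like nuclei turned from lower to higher. *Pcyt2* in oligodendrocyte-like nuclei was at 211, 167, 134 and 188 CPM, again above the next class with enough UMIs, astrocyte-like nuclei (highest library 96.9 CPM). A fibroblast-like library of 3 *Pcyt2* UMIs reached 161 CPM. *Napepld* now entered the class test and was higher in oligodendrocyte-like nuclei (log2 fold change 1.34, SE 0.20), where the libraries stood at 35.0, 34.4, 35.5 and 34.9 CPM. Its entry rested largely on these sums, so this p is not given. The highest *Napepld* mean, 105 CPM, was in the 147 pericyte- and smooth muscle-like nuclei, whose libraries ranged from 0 to 294 CPM. Endothelial-like libraries reached 45.8 CPM. *Napepld* was higher in excitatory neuron-like nuclei (0.93, SE 0.16, adjusted p = 9.79e-07, edgeR) and lower in striatal projection neuron-like nuclei (-1.32, SE 0.29, adjusted p = 6.08e-05, edgeR). *Cept1* passed as higher in microglia-like nuclei (0.80, SE 0.15, adjusted p = 2.07e-05, edgeR), at 94.0, 195, 102 and 114 CPM. The median gene had shifted by 0.10 to 0.15 in these 4 contrasts, and 36.3%, 63.5%, 59.5% and 28% of 11268 genes passed in them.

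*Etnk1* was higher in the endothelial-like class as a whole, which only this limit tested, but not in each of its clusters. Endothelial-like nuclei held 175, 477, 322 and 570 CPM and pericyte- and smooth muscle-like nuclei 147, 237, 388 and 437 CPM, the latter from 2, 19, 13 and 12 UMIs. Fibroblast-like nuclei held 120, 400, 376 and 87.7 CPM from 30 UMIs, overlapping both. The other 8 classes lay between 123 and 213 CPM in every library. *Etnk1* passed as higher in endothelial-like nuclei (log2 fold change 0.74, SE 0.18, adjusted p = 0.00049, edgeR, where 36.5% of genes passed). PE-low-EV library 1 stood apart in this class. Of its endothelial-like nuclei 308 lay in clusters led by vessel genes such as *Cldn5* and *Slco1a4* and 1 in a cluster led by the interferon-stimulated genes *Rsad2*, *Gbp5* and *Iigp1*. The other libraries had 109, 98 and 97 nuclei in the latter cluster and 0, 2 and 0 elsewhere. With libraries pooled, *Etnk1* held 460 CPM in the cluster led by interferon-stimulated genes. The clusters led by vessel genes held 179, 128, 220 and 168 CPM, near the 123 to 213 CPM of the other 8 classes. In this class the kind of cluster and the library cannot be told apart.

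**Figure D4:**
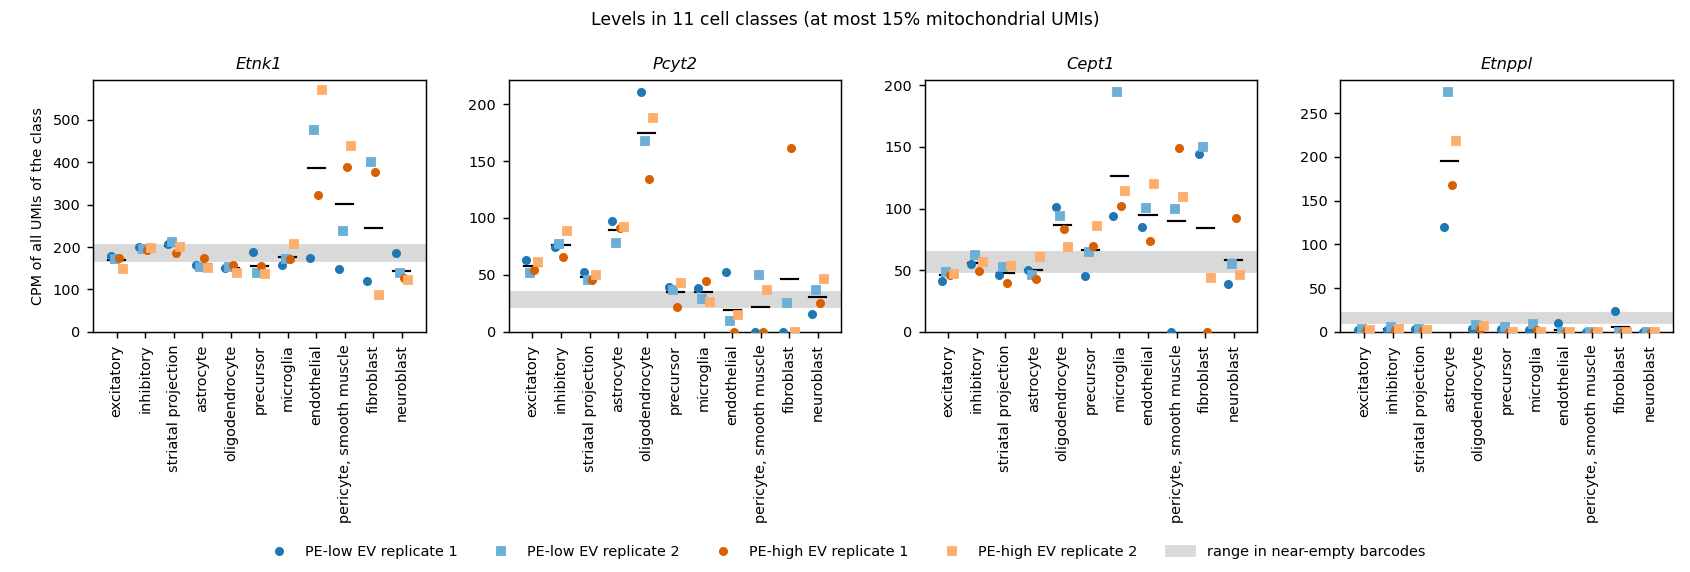
Levels (CPM, axes from 0) of *Etnk1*, *Pcyt2*, *Cept1* and *Etnppl* in 11 classes at the 15% mitochondrial limit, with 1 point per library coloured by group, a bar at the mean and a grey band over the range in near-empty barcodes. *Etnk1* of endothelial-like nuclei spans 175 to 570 CPM, and *Etnppl* of astrocyte-like nuclei spans 120 to 274 CPM.

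The study's question for these libraries was what changed with PE-high EVs against PE-low EVs. Within each class the same test compared 2 libraries with 2, so p-values measure the spread between these libraries only. At the 3% limit 36 pairs of a PE gene and a class had enough UMIs, from all 9 tested genes of excitatory neuron-like nuclei down to *Etnk1* alone in precursor-like and microglia-like nuclei. None passed an adjusted p of 0.1 (smallest 0.835) with edgeR, none was under an unadjusted p of 0.05 and none passed with DESeq2. Among all genes tested, 0.0229% passed in excitatory neuron-like nuclei (3 of 13113) and 0% in each of the other 6 classes. The fold changes of the PE genes lay between -0.79 and 0.79 on the log2 scale, with a median of -0.03.

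**Figure D5:**
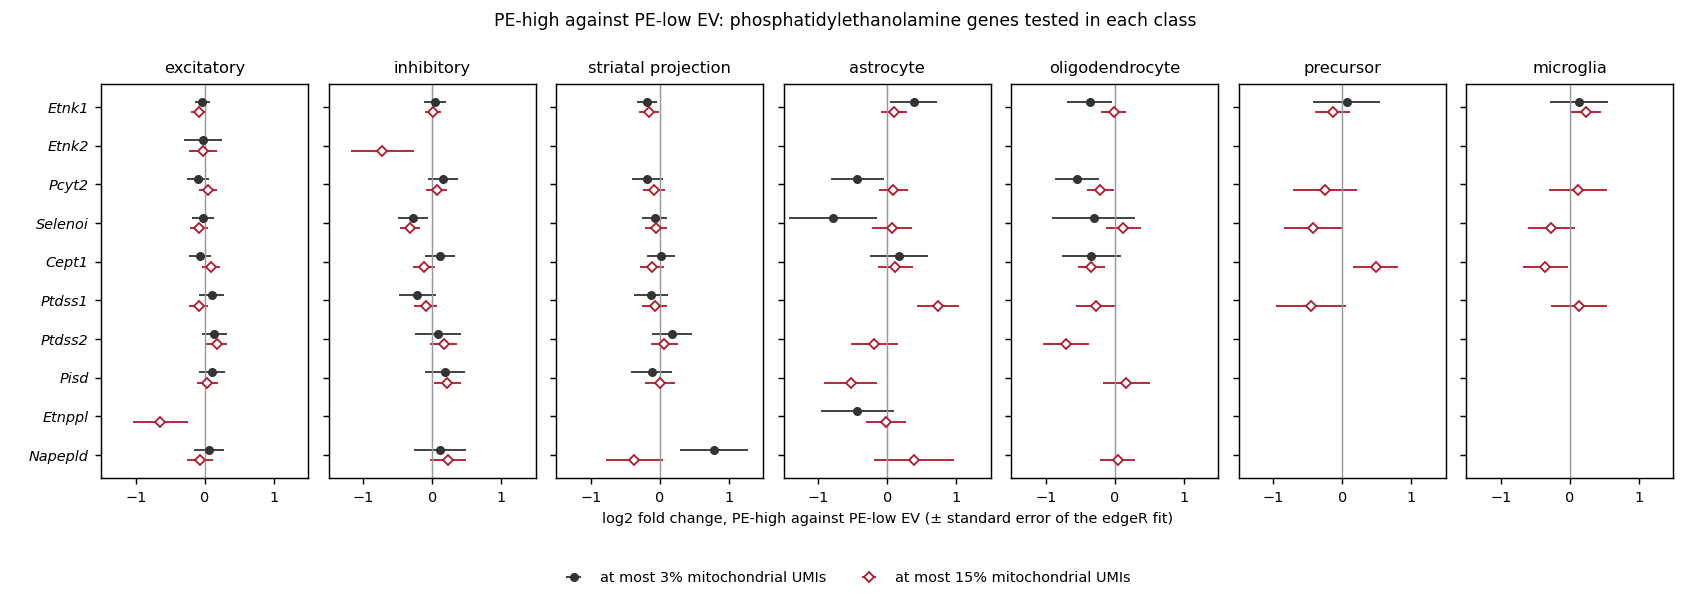
Log2 fold change (PE-high EV over PE-low EV) of the PE genes tested in each of 7 cell classes, at the 3% limit (filled points) and the 15% limit (open points), with bars of 1 standard error. All 36 filled points lie between -0.79 and 0.79, and none of either kind passed an adjusted p of 0.1.

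The difference nearest to a shift was *Pcyt2* in oligodendrocyte-like nuclei. Both PE-low-EV libraries (262 and 220 CPM) were above both PE-high-EV libraries (153 and 170 CPM), means of 241 ± 29.4 and 161 ± 12 (SD, n = 2). The test gave a log2 fold change of -0.55 (SE 0.32, adjusted p = 0.922, edgeR). At the 15% limit the groups overlapped (211 and 167 against 134 and 188 CPM) and the fold change was -0.21 (SE 0.20). The separation at the 3% limit was not particular to this pair. It was also seen for *Pcyt2* in astrocyte-like nuclei (log2 fold change -0.43, SE 0.39) and for *Etnk1* in striatal projection neuron-like nuclei (-0.19, SE 0.15). The share of all genes with such a separation was not computed. In astrocyte-like nuclei *Selenoi* gave -0.79 (SE 0.64) from 41.1, 66.1, 59.5 and 17.9 CPM, where 1 library of 3 UMIs was low, and 0.07 at the 15% limit. *Etnppl* gave -0.43 (SE 0.53) and at the wider limit -0.02, with the spread between replicates described above. *Napepld* in striatal projection neuron-like nuclei gave 0.79 (SE 0.50), with 3.67 and 7.06 against 8.32 and 10.1 CPM, and -0.37 at the wider limit.

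Excitatory neuron-like nuclei, the deepest class, gave the tightest estimates. The fold changes of their 9 tested PE genes lay between -0.10 and 0.14 on the log2 scale, with standard errors of 0.11 to 0.27. *Etnk1* there stood at 176, 166, 173 and 155 CPM (log2 fold change -0.03, SE 0.11) and *Pcyt2* at 62.8, 50.4, 47.4 and 54.4 CPM (-0.10, SE 0.16). Standard errors were 0.34 to 0.64 in astrocyte-like and 0.32 to 0.60 in oligodendrocyte-like nuclei. Counts were simulated from the mean levels and depths of these libraries, with 2-fold changes. Their dispersion was set to the same value for every gene and class and was not estimated from the libraries. The shares below therefore do not give the power for genes whose replicates vary more, such as *Etnppl* in astrocyte-like nuclei. Of the changed genes, 51.5% were recovered in excitatory neuron-like nuclei, 40.2% in inhibitory and 44.3% in striatal projection neuron-like nuclei. The shares were 31.1% in astrocyte-like, 28.2% in oligodendrocyte-like, 32.9% in precursor-like and 52.6% in microglia-like nuclei. Each share is among the genes that passed the low-count filter in that class, from 12863 in excitatory neuron-like to 1319 in microglia-like nuclei.

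At the 15% limit 58 pairs were tested and none passed with edgeR (smallest adjusted p = 0.830), while 3 were under an unadjusted p of 0.05. These were *Selenoi* in inhibitory neuron-like nuclei (log2 fold change -0.33, SE 0.15), at 76.9, 67.8, 54.9 and 57.4 CPM, *Ptdss1* in astrocyte-like nuclei (0.74, SE 0.30), at 26.6, 28.0, 54.2 and 34.4 CPM, and *Ptdss2* in oligodendrocyte-like nuclei (-0.70, SE 0.33), at 24.1, 26.7, 14.7 and 16.1 CPM. Of all pairs of a gene and a class, 4.8% were under an unadjusted p of 0.05 at this limit. Of all genes, 0.0139% passed in excitatory neuron-like nuclei (2 of 14406) and 0% in each of the other 10 classes. A test of whether the treatment difference in a class departed from that in the other classes passed for none of 49 pairs at the 3% limit with edgeR, with 3 under an unadjusted p of 0.05 (5.06% of all pairs were). Among all genes it passed for 0.0141% in astrocyte-like nuclei (1 of 7097) and 0% in the other 6 classes. The strongest of the 3 was *Pisd* in astrocyte-like nuclei (adjusted p = 0.548, edgeR), where 70.4 and 28.3 CPM stood against 11.9 and 5.96 CPM, the last 2 values from 1 UMI each. *Pisd* met the low-count filter in 4 of the 28 sums, the fewest allowed. The sum at 70.4 CPM was 1 of them, so entry to this test rested in part on that value.

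The neighbouring genes of the pathway were read from a list of 35, of which 33 were in the files. It covered the choline branch and methylation, ether lipid synthesis, acyl remodelling, N-acylethanolamine handling, ethanolamine supply and transport, and phosphatidylserine transfer in mitochondria. In PE-high against PE-low none of their 108 pairs passed with edgeR and 8 were under an unadjusted p of 0.05, where 4.62% of all pairs were. The counts at the 15% limit were 0 and 6 of 180, where 4.8% of all pairs were under 0.05. In the class test 33 of 133 pairs passed as higher and 25 as lower, and 33% of all pairs passed in either direction.

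The largest positive class difference that passed in each branch was as follows, with 1 gene per branch. In oligodendrocyte-like nuclei *Slc44a1*, a choline and ethanolamine transporter, stood at 280, 521, 251 and 455 CPM (log2 fold change 1.56, SE 0.13, adjusted p = 5.06e-15, edgeR). *Plaat3*, a phospholipase and acyltransferase, stood at 55.1, 68.1, 54.6 and 109 CPM there (2.65, SE 0.30). These sums alone were enough to pass the low-count filter of 37.3 CPM, so its p is not given. Both shared the class in which *Pcyt2* was highest. In precursor-like nuclei *Chpt1*, the cholinephosphotransferase, stood at 154, 269, 94.2 and 133 CPM (1.41, SE 0.23, adjusted p = 2.16e-06, edgeR). In astrocyte-like nuclei *Prelid3a*, of a family of mitochondrial lipid carriers, stood at 129, 120, 167 and 143 CPM (1.35, SE 0.20, adjusted p = 1.31e-07, edgeR). *Pla2g4e*, the acyltransferase that makes the N-acyl-PE used by *Napepld*, was higher in excitatory neuron-like nuclei at 38.3, 42.7, 38.3 and 29.0 CPM (1.94, SE 0.22). Its entry to the class test rested largely on these sums, so its p is not given either. *Agps*, of plasmalogen synthesis, passed in microglia-like nuclei (0.86, SE 0.30, adjusted p = 0.0681, edgeR) at 155, 157, 64.1 and 17.2 CPM, and lost the call without PE-low-EV library 1 (adjusted p = 0.746), without PE-low-EV library 2 (0.280) and without the low-count filter (0.192).

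The genes most like each PE gene over the 28 sums of 7 classes and 4 libraries were ranked by Pearson's r of log2 CPM among 10427 genes, as a description. The sums share libraries and differ in depth. Nearest to *Pcyt2* were *Zdhhc9* (0.86), *Fnbp1* (0.85) and *Arhgap23* (0.85). For *Napepld* they were *Il1rap* (0.83), *Agpat4* (0.81) and *Ano10* (0.80). *Etnk1* was nearest to *Dhx32* (0.80), *Hs3st5* (0.72) and *Ano6* (0.69), and *Selenoi* to *Dram1* (0.66), *Rc3h2* (0.66) and *Uba2* (0.65). *Cept1* had *Set*, *Eif3b* and *Hat1* (each 0.77). In the mitochondrial route *Pisd* had *Aldh18a1* (0.75), *Bcas2* (0.70) and *Mpg* (0.67), *Ptdss1* had *Arfgap1* (0.80), *Stx3* (0.77) and *D230025D16Rik* (0.75), and *Ptdss2* had *Srr* (0.85), *B3galnt2* (0.78) and *Adat1* (0.73). *Etnk2* and *Etnppl* had under 200 UMIs and were not ranked.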

How the data were processed

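Nuclei from brain tissue were sequenced as 4 libraries of the 3' 10x Genomics kind. Per the labels and the methods, the authors aligned reads to mm10 and counted UMIs per gene and barcode with Cell Ranger 7.1.0, and the deposited matrices hold raw UMI counts for all barcodes, with gene and barcode lists. Barcodes above the expected-cell knee were called, with others of at least 500 UMIs tested against the ambient profile at a false discovery rate of 0.01. The limits stated in the study's methods were then applied (200 to 2500 genes per nucleus, no more than 3% of UMIs mitochondrial). An alternative of 15% came closer to the study's reported number of nuclei. Doublets were not removed. Normalized counts were clustered (scanpy 1.11.5, 2000 variable genes without the PE and pathway genes, 30 components, Leiden resolution 0.8) and clusters were named from fixed markers by a rule set after the clusters were seen.

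Counts were summed per class and library for classes with at least 10 nuclei in each library, and tested with edgeR 4.0.16 (quasi-likelihood, TMM factors, filterByExpr, Benjamini-Hochberg over all tested genes, threshold 0.1, two-sided). Class contrasts had library as a covariate. Alternatives were DESeq2 1.42.0, RLE factors, no low-count filter, a replicate block, the 15% limit, no upper gene limit and leaving out each library. Positions are those of the GRCm38 annotation. All 10 members were described, of the other pathway genes those passing between treatments and the largest positive passing class difference of each sub-list, and for likeness the 3 nearest genes. The members and lists were chosen with earlier results of these data known. The fits were tested on simulated data. Depth was 29472021 to 43272337 UMIs per library, and intervals and floors cover counting error only.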

Additional observations from a re-analysis of the deposited data

How the results depend on the processing

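Of 359 alternative treatment values, 314 kept their direction and side of the threshold and 45 changed sign, and with edgeR or DESeq2 no pair of a PE gene and a class passed under any alternative run. At the 15% limit the sign changed in astrocyte-like nuclei for *Pcyt2* (0.090) and *Selenoi* (0.071), in excitatory neuron-like nuclei for *Cept1* (0.092), *Napepld* (-0.071), *Pcyt2* (0.049) and *Ptdss1* (-0.087), in inhibitory neuron-like nuclei for *Cept1* (-0.12), in oligodendrocyte-like nuclei for *Selenoi* (0.12), in precursor-like nuclei for *Etnk1* (-0.14) and in striatal projection neuron-like nuclei for *Cept1* (-0.11), *Napepld* (-0.37) and *Pisd* (0.0046). *Etnk1* in precursor-like nuclei was -0.091 with DESeq2 and -0.12 without the low-count filter, *Cept1* in striatal projection neuron-like nuclei was -0.018 without the filter, and *Etnk2* in excitatory neuron-like nuclei was 0.076 without the upper gene limit. The cause of these changes was not tested.

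With 1 library left out at a time, the lone library is assumed to vary like the others. The log2 fold changes then ranged, in astrocyte-like nuclei, from -0.48 to 0.44 for *Cept1*, from -1.58 to 0.61 for *Etnppl* and from -1.61 to 0.065 for *Selenoi*. In excitatory neuron-like nuclei they ranged from -0.15 to 0.011 for *Cept1*, -0.11 to 0.064 for *Etnk1*, -0.14 to 0.10 for *Etnk2*, -0.13 to 0.31 for *Napepld*, -0.23 to 0.055 for *Pcyt2*, -0.12 to 0.35 for *Ptdss1* and -0.20 to 0.19 for *Selenoi*. In inhibitory neuron-like nuclei they ranged from -0.022 to 0.37 for *Cept1*, -0.048 to 0.17 for *Etnk1*, -0.32 to 0.44 for *Napepld*, -0.54 to 0.40 for *Pcyt2* and -0.22 to 0.94 for *Ptdss2*. The ranges were -2.41 to 0.29 for *Selenoi* in oligodendrocyte-like nuclei, -0.76 to 0.39 for *Etnk1* in precursor-like nuclei, and -0.27 to 0.18 for *Cept1*, -0.28 to 0.046 for *Pisd* and -0.39 to 0.11 for *Selenoi* in striatal projection neuron-like nuclei.

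The count of 10 pairs passing in the class test was 35 at the 15% limit, where 99 pairs were tested and 36.9% of all pairs passed. It was 17 without the low-count filter, where 1319 (microglia-like) to 5544 (excitatory neuron-like) of 24174 genes passed in a class. With 1 library left out it was 7 to 14, among 5091 to 8284 genes tested in each class. *Pcyt2* turned from lower to higher at the 15% limit in excitatory neuron-like (0.59) and striatal projection neuron-like nuclei (0.34), where the mean of the other classes includes 4 more classes. Of 124 class values, 113 kept their direction and call and 9 lost the call. Without the low-count filter the lost calls were *Cept1* (adjusted p = 0.104) and *Pcyt2* (0.475) in excitatory neuron-like nuclei and *Agps* in microglia-like nuclei (0.192). At the 15% limit *Pcyt2* in precursor-like nuclei lost its call (0.275), and the other 5 were lost with 1 library left out. The replicate numbers are not stated to mark a shared day or animal, so they were not taken to pair the libraries. Same-numbered libraries of the groups deviated together with correlations of -0.007 to 0.163 over genes. With a replicate block 0 pairs of a PE gene and a class passed between treatments, as without it, and *Cept1* in striatal projection neuron-like nuclei was -0.011. Among all genes the block changed the calls. With it 47 of 3778 genes passed in astrocyte-like and 32 of 10939 in striatal projection neuron-like nuclei, against 0 in each without it. Depth decided how many PE genes could be tested between treatments at the 3% limit, from 9 in excitatory neuron-like nuclei to 1 each in precursor-like and microglia-like nuclei.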
